A study of Mus musculus with 4 samples.

Results

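Proliferin-high DFAT cells are the 10% of cells in each DFAT library in which the transcripts of *Prl2c2*, *Prl2c3* and *Prl2c5* took the largest share of all counted transcripts. They numbered 763 of 7629 cells in the iWAT DFAT library and 646 of 6464 cells in the eWAT DFAT library, together 1409 of 14093 DFAT cells and of 28262 cells in the whole series. They were compared with the 50% of cells of the same library with the smallest proliferin share, 3814 and 3232 cells, called proliferin-low here. Because this share chose both groups, the proliferin levels below are a description, and so is every other gene of the comparison, since it was read from the same cells.

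De-differentiated fat (DFAT) cells were obtained by ceiling culture, in which floating adipocytes attach to an upper surface, lose their lipid and become spindle-shaped. The adipocytes came from the inguinal (iWAT) or epididymal (eWAT) fat of chow-fed C57BL/6J male mice, whose number and age for these libraries were not given in the sources used here. Adipose stem and precursor cells (ASPCs) are represented by cultured SVF cells, the pelleted cells of each depot after digestion. All cultures were detached, cells were stained with 7-AAD, a dye of dead cells, and sorted, and 1 library per condition was made with the 10x Genomics 3′ chemistry, which counts each captured RNA molecule once by its unique molecular identifier (UMI). With 1 library per condition, differences between animals or cultures were not measured, no test was made, and all intervals are 95% intervals of counting error only. A level is given as UMIs per 1000000 UMIs (CPM), summed over the cells of a group, and a log2 ratio compares proliferin-high with proliferin-low cells of 1 library unless stated otherwise.

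Proliferins are secreted glycoproteins of the prolactin family, which is greatly expanded in the mouse. They are best known from trophoblast giant cells of the placenta, where they act on blood vessel growth, and from mouse fibroblast cultures, where serum and growth factors induce them. Their genes lie close together on chromosome 13, in mm10 (GRCm38) coordinates *Prl2c3* (ENSMUSG00000056457) at chr13:12790816-12800079 on the minus strand, *Prl2c2* (ENSMUSG00000079092) at chr13:12996125-13005383 on the minus strand and *Prl2c5* (ENSMUSG00000055360) at chr13:13182715-13191923 on the plus strand.

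These genes are near copies of each other, which limits how well their counts can be told apart. The annotated transcripts of *Prl2c2* and *Prl2c3* were identical at 838 of 842 aligned bases, and over their last 300 bases, the part that a 3′ library reads most, at all 295 aligned bases. *Prl2c5* was 96.6% identical to *Prl2c2* and 96.4% identical to *Prl2c3*. How the counting treated reads that fit both *Prl2c2* and *Prl2c3* was not checked. The split between these genes is therefore uncertain. The sum of the 3 genes does not depend on that split, but it may lack such reads.

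The 250 bases before the start of *Prl2c3* (chr13:12800080-12800329, minus strand) and of *Prl2c5* (chr13:13182466-13182715, plus strand) are shown, from RefSeq on GRCm38.p6 and counted from the RefSeq start, which for *Prl2c5* lies 1 base inside the gene as placed above, to let the copies be compared letter by letter. They were identical at 241 of 249 aligned bases (96.8%). Capitals mark a match to TGANTCA, the letters of an AP-1 site, which lay 209 to 203 bases before the start of *Prl2c3*.
Prl2c3: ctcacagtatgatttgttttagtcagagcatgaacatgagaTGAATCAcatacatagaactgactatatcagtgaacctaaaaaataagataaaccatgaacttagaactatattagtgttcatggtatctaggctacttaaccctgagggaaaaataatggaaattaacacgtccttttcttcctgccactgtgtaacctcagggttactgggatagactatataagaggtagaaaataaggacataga
Prl2c5: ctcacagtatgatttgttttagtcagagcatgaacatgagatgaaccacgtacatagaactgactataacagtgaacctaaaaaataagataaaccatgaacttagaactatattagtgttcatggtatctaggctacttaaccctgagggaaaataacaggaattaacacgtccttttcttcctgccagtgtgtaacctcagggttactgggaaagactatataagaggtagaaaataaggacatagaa
TGANTCA, which reads the same way on both strands apart from its middle base, occurred in this window in 6.75% of 32851 mouse promoters. Neither proliferin window held TGACNNNGC, the letters of an antioxidant response element, on either strand, which 10.2% of the promoters did. A match is a description of the letters and not evidence of binding.

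Proliferin transcripts were spread very unevenly over the DFAT cells. In the iWAT DFAT library 3562 of 7629 cells held no proliferin UMI, the proliferin-high cells held 61.2% of all proliferin UMIs, and their summed level was 1532 CPM (1516 to 1549). In the eWAT DFAT library 2001 of 6464 cells held none, the proliferin-high cells held 54.9% of the proliferin UMIs, and their summed level was 3147 CPM (3122 to 3172). The proliferin-low cells stood at 2.95 and 24.6 CPM, and the cells between both groups at 257 and 611 CPM.

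Within the proliferin-high cells the level of single cells ranged from 770 to 7335 CPM in iWAT, with a median of 1256 CPM and 34 UMIs per cell. It ranged from 1677 to 14100 CPM in eWAT, with a median of 2686 CPM and 81 UMIs per cell. The cutoff fell in a continuous distribution with no gap: the last cell inside and the first outside stood at 769.7 and 769.4 CPM in iWAT and at 1677 and 1675 CPM in eWAT. The eWAT cells were the higher ones on a common scale, since 1438 eWAT DFAT cells (22.2%) reached the iWAT cutoff and 212 iWAT DFAT cells (2.78%) reached the eWAT cutoff.

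**Figure D1:**
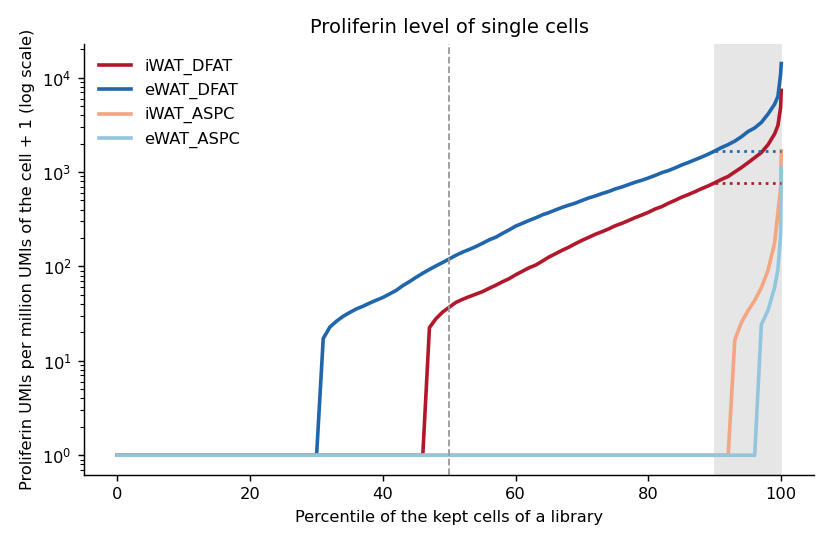
Proliferin CPM of each cell plus 1, on a log scale, against the percentile of the kept cells of each of the 4 libraries. The shaded top 10% and the dotted lines mark the proliferin-high cells of the DFAT libraries and their cutoffs of 770 CPM (iWAT) and 1677 CPM (eWAT), the dashed line is the 50% mark, and both ASPC curves leave 0 only within the shaded range.

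Proliferin transcripts were nearly absent from the cultured ASPCs. Their summed level was 7.94 CPM (7.55 to 8.34) in iWAT ASPCs and 2.22 CPM (2.02 to 2.44) in eWAT ASPCs, against 283 and 606 CPM over all cells of the DFAT libraries. A proliferin UMI was found in 523 of 7424 iWAT ASPCs (7.04%) and in 229 of 6745 eWAT ASPCs (3.40%), so that a top 10% could not be drawn from them. Of all ASPCs, 6 from iWAT and 1 from eWAT reached the iWAT DFAT cutoff. For the sum of the 3 proliferin genes, 0 of 7424 and 0 of 6745 reached the eWAT DFAT cutoff, which, with 3 cells as the limit that a count of 0 allows, permits shares of up to 0.0404% and 0.0445%.

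Free RNA carries proliferin as well. Droplets with up to 100 UMIs held 260 and 492 CPM of proliferin in the iWAT and eWAT DFAT libraries and 9.11 and 3.24 CPM in the ASPC libraries. Cells with 3 or more endothelial markers were looked at as well, but whether they lack these genes was not tested. Among them a proliferin UMI was found in 26.9% of 26 cells at a median depth of 21929 UMIs in the iWAT DFAT library. In the eWAT DFAT library it was found in 21.9% of 160 cells at 12508 UMIs. After every cell was thinned to 5000 UMIs these shares were 15.4% and 16.2%, against 759 of 763 and 646 of 646 of the proliferin-high cells at median depths of 26003 and 28985.5 UMIs before thinning. The thinned shares of the proliferin-low cells were 1.15% and 9.65%, which the choice of those cells by a small proliferin share fixes in part. The choice of the proliferin-high cells by a large proliferin share likewise fixes their near-complete detection, so nothing is read from it. Of the endothelial-marker cells, 2 in iWAT and 3 in eWAT were themselves proliferin-high and raise the shares given for them. With these included, the summed proliferin level of the endothelial-marker cells was 452 CPM in iWAT and 224 CPM in eWAT. In the ASPC libraries 2 of 65 and 3 of 175 endothelial-marker cells held a proliferin UMI.

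*Prl2c2* and *Prl2c3* were found together in nearly all proliferin-high cells. Both had a UMI in 739 of 763 cells in iWAT and in 642 of 646 cells in eWAT. *Prl2c2* stood at 946 CPM and *Prl2c3* at 571 CPM in iWAT, whereas in eWAT they were close, at 1501 and 1550 CPM. *Prl2c5*, at 15.2 and 96.4 CPM, had a UMI in 88 and 207 proliferin-high cells. *Prl2c1*, a further member of the cluster that the rule did not use, had 15 UMIs in the iWAT and 12 UMIs in the eWAT proliferin-high cells and 0 and 1 UMIs in the proliferin-low cells. Of 15 listed prolactin family genes and receptors, *Prl2c1* included, 14 were matched by symbol and only *Igf2r*, a receptor to which proliferin binds, reached 20 CPM, at 46.4 against 41.6 CPM in iWAT and at 23.6 against 29.9 CPM in eWAT. The prolactin receptor *Prlr* stood at 0.820 CPM in the proliferin-high cells of iWAT and at 3.01 CPM in those of eWAT.

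The share of *Prl2c3* in the UMIs of this pair differed widely from cell to cell. Its median over proliferin-high cells was 27.8% in iWAT, with the middle 50% of cells between 14.9% and 48.4%, and 47.7% in eWAT, with the middle 50% between 33.3% and 60.4%. The variance of the *Prl2c3* UMIs around the library's summed share was 8.63 times the binomial value in iWAT and 12.2 times in eWAT. The rule used these UMIs to choose the cells, and their assignment to near-identical genes is uncertain. The shares and their variance are therefore a description with nothing read from them.

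The proliferin-high cells expressed stromal markers, and endothelial, immune, mesothelial, pericyte and Schwann markers were low in them. Of 11 stromal markers, 10 reached 20 CPM in iWAT and 9 in eWAT, with *Vim* at 1463 and 2101 CPM, *Pdgfra* at 188 and 88.1 CPM and *Pdgfrb* at 95.1 and 93.3 CPM. Their summed level was nevertheless lower than in the proliferin-low cells, at 7116 against 12824 CPM in iWAT and at 5470 against 7543 CPM in eWAT. At 1.5-fold, 0 of 10 measured stromal markers were higher and 5 lower in iWAT, and 1 of 10 higher and 6 lower in eWAT, with median log2 ratios of -0.87 and -1.22. Among all genes 3.07% were higher and 5.04% lower in iWAT, and 5.86% and 5.49% in eWAT. No marker of the endothelial, immune, mesothelial, pericyte or Schwann lists reached 20 CPM. The summed level of the 10 endothelial markers was 13.7 CPM in iWAT and 18.9 CPM in eWAT, mostly *Egfl7*, with *Cldn5* at 0 in iWAT. That of the 10 immune markers was 18.4 and 20.5 CPM, mostly *Csf1r*, with *Ptprc*, *Adgre1* and *Laptm5* at 0 in both. Of the 10 mesothelial markers, 7 were at 0 in iWAT and 2 in eWAT, where *Wt1* led with 17.3 CPM. *Higd1b* of the 8 pericyte markers and *Ngfr* and *Gfra3* of the 9 Schwann markers were at 0 in both. Of the 8 adipocyte markers, described further below, 1 reached 20 CPM in iWAT and 2 in eWAT, and their summed level was above that of the proliferin-low cells, at 48.3 against 27.99 CPM in iWAT and at 179 against 144 CPM in eWAT. *Plin1* alone made up 32.3 and 104 CPM of these sums in the proliferin-high cells. Only 4 of the 8 were higher in each library, and *Adipoq*, *Car3* and *Cfd* were lower in both. In eWAT, 134 of 3232 proliferin-low cells held 3 or more endothelial and 134 held 3 or more pericyte markers, against 3 and 0 of the 646 proliferin-high cells. Cells with 3 or more adipocyte markers lay the other way, with 62 of 646 proliferin-high and 90 of 3232 proliferin-low cells in eWAT, and 16 of 763 and 19 of 3814 in iWAT.

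Of the 6 markers given for this population, the 3 not used to choose the cells were all higher in it. These markers were chosen with earlier results of these data known, so their direction is a description and no support. *Spp1* (chr5:104435118-104441050), the secreted phosphoprotein osteopontin, stood at 3255 against 1431 CPM in iWAT and at 7774 against 2525 CPM in eWAT. *Slc7a11* (chr3:49892526-50443614), the cystine and glutamate exchanger that feeds glutathione synthesis, stood at 326 against 113 CPM in iWAT and at 540 against 150 CPM in eWAT. *Areg* (chr5:91139599-91148432), the EGF receptor ligand amphiregulin, stood at 14.3 against 3.55 CPM in iWAT, below the 20 CPM minimum used for counts, and at 98.9 against 9.86 CPM in eWAT. The log2 ratios were 1.19 (1.17 to 1.20) and 1.62 (1.61 to 1.63) for *Spp1*, 1.53 (1.49 to 1.58) and 1.85 (1.81 to 1.88) for *Slc7a11* and 2.01 (1.78 to 2.25) and 3.33 (3.21 to 3.44) for *Areg*. *Spp1* was abundant in both groups, while *Areg* had a UMI in 35.3% of the proliferin-high cells of eWAT and in 7.2% of those of iWAT at full depth.

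A gene was counted as higher or lower when the ratio was at least 1.5-fold, over genes with 20 or more CPM in either group and without the 3 proliferin genes. In iWAT 202 of 6583 genes were higher (3.07%) and 332 lower (5.04%), and in eWAT 369 of 6300 were higher (5.86%) and 346 lower (5.49%). Of 5948 genes measured in both libraries, 122 were higher in both (2.05%) and 144 lower in both (2.42%). These shared genes were 60.4% of those higher in iWAT and 33.1% of those higher in eWAT, and 43.4% and 41.6% of those lower. The median log2 ratio of all genes was 0.05 in iWAT and -0.01 in eWAT, and the central 95% of genes lay between -0.90 and 0.64 in iWAT and between -0.97 and 0.95 in eWAT. A gene that reached 20 CPM in 1 group alone had to be higher in that group, so these counts are a description. With the 20 CPM minimum taken over all kept cells of a library, 87 genes were higher and 122 lower in both.

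**Figure D2:**
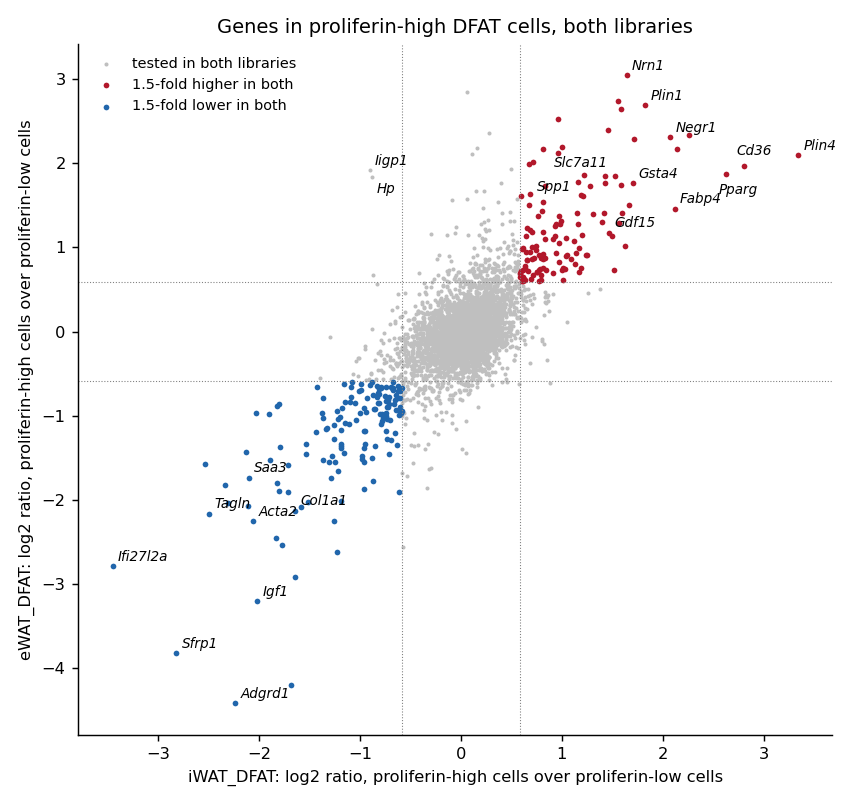
Each point is a gene measured in both DFAT libraries, with the log2 ratio of proliferin-high over proliferin-low cells in iWAT on the x axis and in eWAT on the y axis. The dotted lines are the 1.5-fold limits, red marks the 122 genes higher in both and blue the 144 genes lower in both, with *Plin4*, *Cd36* and *Pparg* farthest to the right and *Adgrd1* lowest.

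Most measured adipogenic genes were higher in both libraries. Of 20 listed factors and adipocyte genes, 10 were measured in iWAT, of which 8 were higher and 1 lower, and 12 in eWAT, of which 7 were higher and 2 lower, with 7 higher and *Cebpd*, an early adipogenic transcription factor, lower in both. The list's median log2 ratio was 1.55 in iWAT and 1.498 in eWAT, against 0.05 and -0.01 over all genes. *Plin4*, *Cd36*, *Plin1* and *Zfp423* in iWAT, and *Plin4* and *Plin1* in eWAT, reached 20 CPM in the proliferin-high cells alone and so had to be higher, and these counts and medians are a description and no support. Cycling cells were 75.2% of the kept eWAT cells. Without them the eWAT median of this list was 0.22, below the 0.77 of the NRF2 list under the same setting. The list holds both regulators and products of fat cells, and these differed.

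*Pparg* (chr6:115360951-115490399), the nuclear receptor that drives fat cell formation, stood at 131.8 CPM in proliferin-high and 21.3 CPM in proliferin-low cells of iWAT and at 170.3 and 46.6 CPM in eWAT. Its log2 ratio was 2.63 (2.54 to 2.72) in iWAT and 1.87 (1.80 to 1.94) in eWAT, and the cells between both groups held 47.5 and 73.3 CPM. At 5000 UMIs per cell a *Pparg* UMI was found in 35.3% of proliferin-high and 7.55% of proliferin-low cells of iWAT and in 40.1% and 15.3% of those of eWAT. The difference was thus present at equal depth, where more cells with the transcript and more transcript per cell cannot be told apart. The endothelial-marker cells of eWAT also hold *Pparg*, in 43.1% of cells at that depth, and 134 of those 160 cells were proliferin-low.

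The other genes of the list that were higher in both libraries were *Fabp4*, *Cd36*, *Plin1*, *Plin2*, *Plin4* and *Lpl*. *Fabp4*, a fatty acid carrier that endothelial cells also express, stood at 812 against 187 CPM in iWAT and at 4789 against 1745 CPM in eWAT. *Cd36*, a fatty acid transporter also of endothelial cells, stood at 33.7 against 4.83 CPM and at 214 against 54.7 CPM. *Plin1*, the main coat protein of adipocyte lipid droplets, stood at 32.3 against 9.09 CPM and at 104 against 16.2 CPM. *Plin4*, another coat protein of this family, had the largest ratio in iWAT, at 28.3 against 2.79 CPM, and stood at 21.1 against 4.93 CPM in eWAT. *Plin2*, the coat protein of droplets in most cell types, had log2 ratios of 1.28 and 1.73, and *Lpl*, the lipase of circulating triglycerides, of 0.81 and 1.54. *Cidec*, another lipid droplet protein, and *Lipe*, hormone-sensitive lipase, were under 20 CPM in both groups, and in eWAT *Cidec* stood at 11.3 against 7.34 CPM and *Lipe* at 11.1 against 10.4 CPM.

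The 8 adipocyte markers differed in direction. One of them, *Plin1*, was measured in iWAT, and 3 in eWAT, of which *Plin1* was higher, *Cfd* lower and *Car3* neither, with a median log2 ratio of -0.47. *Car3*, a carbonic anhydrase of adipocytes and muscle, stood at 0.386 against 4.77 CPM in iWAT and at 29.6 against 41.02 CPM in eWAT. *Adipoq* (adiponectin) stood at 0.579 against 1.58 CPM in iWAT and at 5.05 against 18.2 CPM in eWAT, and *Lep* (leptin) had no UMI in either group of either library. *Retn* (resistin) lay the other way, at 3.81 against 3.02 CPM in iWAT and at 15.1 against 10.1 CPM in eWAT, both below 20 CPM. *Cfd* (adipsin) had 3 UMIs in all proliferin-high cells of iWAT and stood at 2.50 against 40.8 CPM in eWAT, with a log2 ratio of -4.03 (-4.47 to -3.62). *Cfd* transcripts came from few cells, since a UMI was found in 98 of 3232 proliferin-low and 12 of 646 proliferin-high cells of eWAT. Without the cells of eWAT that held 3 or more markers of a type other than stromal the log2 ratio of *Cfd* was 0.34 and that of *Adipoq* 0.59. Adipocyte markers, *Cfd* and *Adipoq* among them, were used for that removal, so nothing is read from these ratios. Cells with 2 or more of 8 adipocyte markers made up 6.95% of proliferin-high and 1.89% of proliferin-low cells in iWAT and 20.9% and 4.18% in eWAT. Without such cells the log2 ratio of *Pparg* was 2.53 in iWAT and 1.91 in eWAT.

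In eWAT part of the adipogenic list was sensitive to the removal of cycling cells. When cells with 2 or more UMIs of 6 cell cycle genes were removed before ranking, the list's median in eWAT was 0.22 in place of 1.498 and the log2 ratio of *Fabp4* was 0.24 in place of 1.46, while *Plin2* stood at 1.74, *Plin1* at 1.45, *Pparg* at 1.26, *Lpl* at 1.25, *Plin4* at 1.01 and *Cd36* at 0.96, all still past 1.5-fold. In iWAT the list's median was then 1.21. That removal took out 4864 of 6464 cells in eWAT (75.2%) and 5053 of 7629 cells in iWAT (66.2%). Removal of eWAT cells with 3 or more markers of a type other than stromal moved the values the other way. The list's median was then 2.04 and the log2 ratio of *Fabp4* 2.46, but adipocyte markers of this list were used for that removal. When cells were ranked by *Prl2c2* alone, the medians were 1.09 in iWAT and 1.004 in eWAT.

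**Figure D3:**
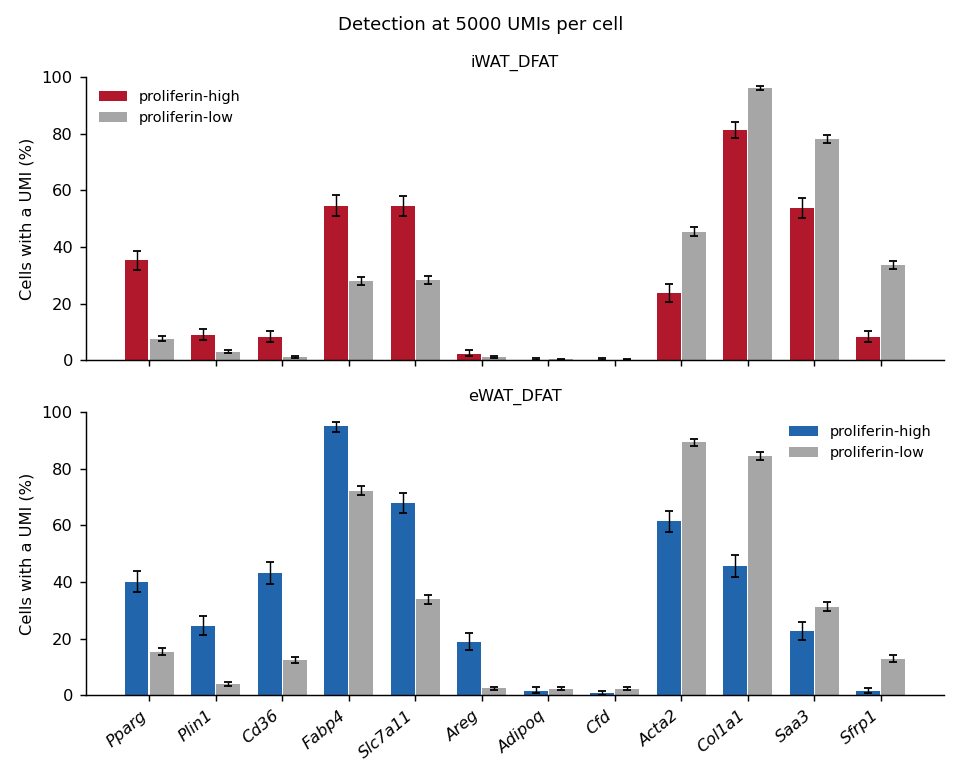
Percentage of cells with a UMI of each gene after every cell was thinned to 5000 UMIs, in proliferin-high cells (coloured bars) and proliferin-low cells (grey bars) of the iWAT DFAT and eWAT DFAT libraries, with exact 95% binomial intervals. *Pparg* was found in 35.3% against 7.55% of cells in iWAT and in 40.1% against 15.3% in eWAT, whereas *Adipoq* and *Cfd* stayed rare in all groups and *Acta2*, *Col1a1* and *Sfrp1* were found in fewer proliferin-high than proliferin-low cells.

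Many genes of glutathione synthesis and antioxidant defence, known targets of the factor NRF2, were higher. Of 24 measured genes of this list of 25, 15 were higher and 0 lower in iWAT, and 15 higher and 0 lower in eWAT, with 12 higher in both, where 3.07% and 5.86% of all genes were higher in these libraries and 2.05% in both. The other 9 measured genes did not pass 1.5-fold in each library, and the list's median log2 ratio was 0.67 in iWAT and 0.61 in eWAT. *Slc7a11*, described above, is one of them. *Gsta4*, a glutathione transferase that detoxifies lipid peroxidation products, stood at 231 against 70.9 CPM in iWAT and at 343 against 101 CPM in eWAT, with log2 ratios of 1.70 (1.65 to 1.76) and 1.76 (1.72 to 1.81). *Gclm*, a subunit of the enzyme for the first step of glutathione synthesis, stood at 415 against 189 CPM and at 961 against 553 CPM. *Prdx1*, a peroxidase, had log2 ratios of 0.65 and 0.85. *Txnrd1* (thioredoxin reductase) and *Ftl1* (ferritin light chain) passed 1.5-fold in iWAT, at 0.91 and 0.69, and not in eWAT, at 0.45 and 0.43. Of the 19 list genes with a RefSeq promoter, 4 held TGACNNNGC within 250 bases of the start (*G6pdx*, *Gclm*, *Prdx1* and *Txnrd1*), and 4 held TGANTCA (*Gstp1*, *Osgin1*, *Prdx1* and *Srxn1*). Counted in the same way, with a match in any promoter of a gene, 11.5% and 7.82% of all 27025 genes held them.

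The list of ATF4 targets, a neighbouring stress response of amino acid shortage that shares *Slc7a11* among its known targets, showed the opposite sign. Of 14 measured genes 1 was higher and 6 lower in iWAT, and 1 higher and 5 lower in eWAT, with medians of -0.51 and -0.39. The shares over all genes were 3.07% higher and 5.04% lower in iWAT, and 5.86% and 5.49% in eWAT. The gene that was higher in both was *Gdf15*, a secreted stress factor, at 97.4 against 35.2 CPM in iWAT and at 129 against 57.3 CPM in eWAT. *Phgdh*, the first enzyme of serine synthesis, had log2 ratios of -0.49 and -1.35, and *Mthfd2*, of mitochondrial folate metabolism, of -0.67 and -0.45.

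The genes with the largest ratios in both libraries included several outside these lists. They were picked by these ratios, so their direction is no support. Most of the 12 given below reached 20 CPM in the proliferin-high cells alone in either or both libraries and so had to be higher there. Among them were *Peg10*, *Plin1* and *Plin4* in both libraries, *Cd36* in iWAT and *Nrn1* in eWAT. The 12 with the largest smaller ratio had log2 ratios between 1.58 and 3.34 in iWAT and between 1.74 and 3.04 in eWAT, and held *Pparg*, *Cd36*, *Plin1*, *Plin4* and *Gsta4* from above. *Peg10*, an imprinted gene derived from a retrotransposon and needed for placenta formation, stood at 33.5 against 6.99 CPM in iWAT and at 62.5 against 12.4 CPM in eWAT. *Negr1*, a cell adhesion molecule of neurons, stood at 172 against 40.9 CPM and at 145 against 29.3 CPM. *Nrn1* (neuritin), a secreted neurotrophic factor, stood at 171 against 54.9 CPM and at 58.2 against 7.07 CPM. The others were *Sema3e*, a secreted semaphorin, with log2 ratios of 2.14 and 2.17, *Astn2* with 1.72 and 2.29, *Vstm2a*, a secreted protein of preadipocytes, with 1.59 and 2.64, and *Gm49890* with 1.58 and 1.74.

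Several contractile and smooth muscle genes were lower. None of the measured genes of this list was higher, and 4 of 9 were lower in iWAT and 11 of 16 in eWAT, with 5 in each not past 1.5-fold and medians of -0.37 and -1.35. Of all genes, 5.04% were lower in iWAT and 5.49% in eWAT. *Acta2*, smooth muscle actin, stood at 128 against 532 CPM in iWAT and at 801 against 3818 CPM in eWAT. *Tagln*, which binds actin in stress fibres, stood at 68.6 against 387 CPM and at 1033 against 4624 CPM. *Myl9*, a regulatory myosin light chain, had log2 ratios of -2.31 and -2.04. In eWAT the proliferin-low cells also held the pericyte profiles given above, and without cells with 3 or more markers of another type the list's median there was -1.23.

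Several fibrillar collagens and other matrix genes were lower in both libraries. Of 18 collagen genes, 16 were measured in iWAT with 0 higher and 7 lower, and 15 in eWAT with 2 higher and 7 lower, and the same 7 were lower in both. Beside the counts of this paragraph, 5.04% of all genes were lower in iWAT, 5.49% in eWAT and 2.42% in both. Higher were 3.07% in iWAT and 5.86% in eWAT. The median log2 ratio of the measured collagen genes was -0.45 in iWAT and -0.12 in eWAT. *Col1a1* stood at 621 against 1938 CPM in iWAT and at 212 against 926 CPM in eWAT, *Col1a2* at 997 against 2852 CPM and at 302 against 1230 CPM, and *Col3a1* had log2 ratios of -1.80 and -1.90. Those are the chains of the main fibrils of connective tissue. Of the other matrix genes 10 of 19 were lower in iWAT and 8 of 16 in eWAT with 0 higher in either, among them *Fn1* (fibronectin, log2 ratios of -1.82 and -0.89), *Dcn* (decorin, -1.25 and -1.55) and *Lox* (lysyl oxidase, which crosslinks collagen, -0.95 and -1.34). The proteases and inhibitors of matrix had 0 higher genes, with 5 of 12 lower in iWAT and 4 of 12 in eWAT, including *Mmp3* (-1.28 and -1.74), *Timp1* (-0.80 and -0.67) and *Timp3* (-1.79 and -1.37).

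**Figure D4:**
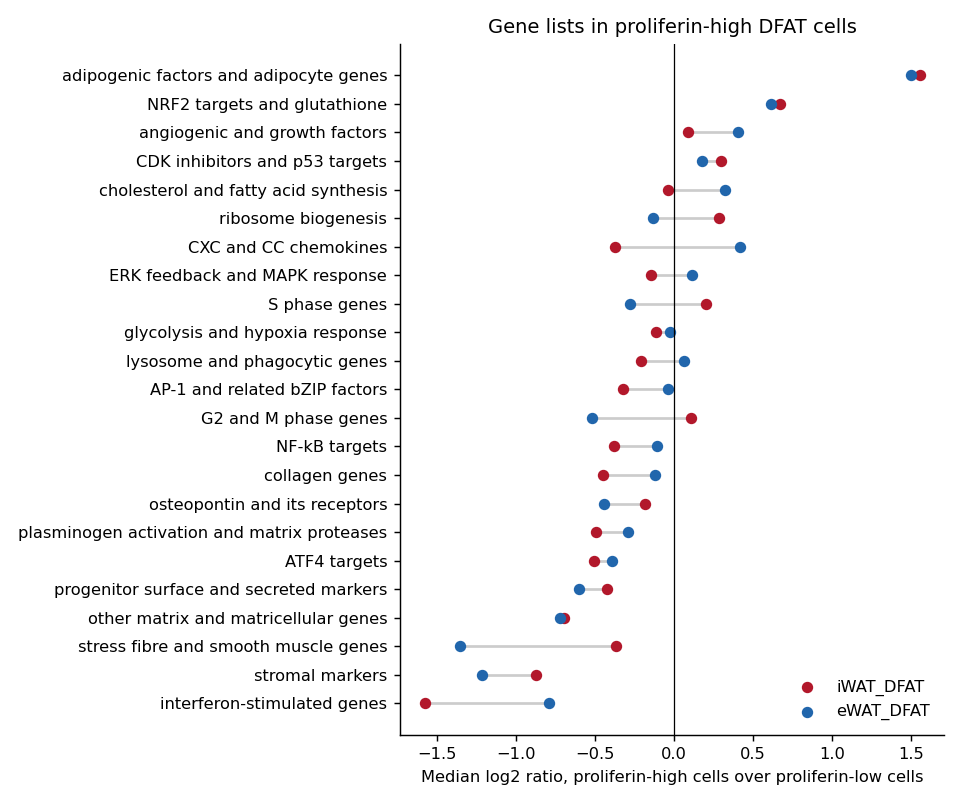
Median log2 ratio of the measured genes of each list, proliferin-high over proliferin-low cells, in iWAT DFAT (red) and eWAT DFAT (blue), for lists with at least 5 measured genes in each library. The adipogenic list stands at 1.55 and 1.498 and the NRF2 list at 0.67 and 0.61, the interferon list lies lowest in iWAT (-1.58) and the stress fibre list in eWAT (-1.35).

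Most measured interferon-stimulated genes were lower, while genes of inflammation were lower in part in iWAT and mixed in eWAT. Of 11 measured interferon genes in iWAT 10 were lower and 0 higher, with a median of -1.58. Of 5 in eWAT 3 were lower and 0 higher, with a median of -0.79. Genes that reached 20 CPM in the proliferin-low cells alone, as *Isg15* did in both libraries, had to be lower. The interferon counts and medians are therefore a description and no support. Among all genes 3.07% were higher and 5.04% lower in iWAT, and 5.86% and 5.49% in eWAT. *Isg15* stood at 9.41 against 47.4 CPM in iWAT and at 7.03 against 24.8 CPM in eWAT, and *Bst2* at 30.5 against 113 CPM and at 61.3 against 176 CPM. *Saa3*, an acute phase protein and NF-κB target, was one of the most abundant transcripts of the proliferin-low cells of iWAT, at 4156 CPM, against 970 CPM in the proliferin-high cells, and stood at 1140 against 342 CPM in eWAT. The list of NF-κB targets, *Saa3* included, was mixed, with 0 of 17 higher and 5 lower in iWAT and 3 of 14 higher and 3 lower in eWAT. *Ptgs2*, the inducible prostaglandin synthase, had log2 ratios of 0.21 in iWAT and 1.12 in eWAT.

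The 12 genes with the lowest ratios in both libraries held, beside *Acta2*, *Tagln*, *Myl9*, *Col3a1* and *Isg15* from above, 7 genes of various roles. Most of the 12 reached 20 CPM in the proliferin-low cells alone in either or both libraries and so had to be lower there. *Isg15*, *Sfrp1* and *Igf1* did so in both. *Sfrp1* (chr8:23411502-23449632), a secreted inhibitor of Wnt, stood at 18.1 against 128 CPM in iWAT and at 2.80 against 39.7 CPM in eWAT, with log2 ratios of -2.82 (-2.97 to -2.67) and -3.82 (-4.23 to -3.44). *Igf1* stood at 5.16 against 21.0 CPM and at 3.72 against 34.3 CPM, and *Cxcl12*, a chemokine of stromal cells, at 176 against 763 CPM and at 50.9 against 214 CPM. *Ror1*, a Wnt receptor, had log2 ratios of -1.83 and -2.45, *Adgrd1*, an adhesion G protein-coupled receptor, of -2.24 and -4.42, *Ifi27l2a* of -3.45 and -2.79 and *Tmem45a* of -1.83 and -1.80. In the other direction, 3 of 16 angiogenic and growth factors were higher in iWAT and 6 of 17 in eWAT, with 2 lower in each. Of all genes, 3.07% were higher and 5.04% lower in iWAT, and 5.86% and 5.49% in eWAT. *Kitl*, the ligand of the receptor Kit, stood at 210 against 108 CPM in iWAT and at 183 against 88.7 CPM in eWAT.

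Ligands of the EGF receptor family were higher in part. Of the 13 listed ligands and receptors, 4 were measured in iWAT with 1 higher and 1 lower, and 6 in eWAT with 3 higher and 0 lower. In eWAT these 3, *Areg*, *Nrg1* and *Btc*, reached 20 CPM in the proliferin-high cells alone and so had to be higher. The counts of this paragraph stand beside shares over all genes of 3.07% higher and 5.04% lower in iWAT and 5.86% and 5.49% in eWAT. *Nrg1* (neuregulin) stood at 77.7 against 40.8 CPM in iWAT and at 35.1 against 14.8 CPM in eWAT, and *Btc* (betacellulin) at 32.5 against 7.17 CPM in eWAT. *Hbegf* went the other way, with log2 ratios of -0.62 and -0.56. The feedback genes of ERK signalling had 1 of 12 higher in iWAT and 3 of 15 in eWAT with 0 lower in either, the AP-1 factors 0 of 11 and 0 of 9 higher with 2 and 0 lower, and *Fos* had log2 ratios of -0.63 and -0.13. Chemokines had 0 of 10 higher and 4 lower in iWAT and 3 of 10 higher and 2 lower in eWAT, where *Cxcl2* stood at 334 against 105 CPM.

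The counts of the remaining lists stand beside shares over all genes of 3.07% higher and 5.04% lower in iWAT and 5.86% and 5.49% in eWAT, and nothing is read from them. Markers of fat progenitors had 2 of 12 higher and 4 lower in iWAT and 1 of 8 higher and 4 lower in eWAT, and osteopontin with its receptors 1 of 7 higher and 2 lower and 2 of 8 higher and 3 lower. Cholesterol and fatty acid synthesis had 0 of 18 higher in iWAT and 3 of 16 in eWAT with 0 lower in either. Glycolysis had 0 of 17 higher and 3 lower in iWAT and 1 higher and 1 lower of 17 in eWAT, and lysosomal genes 0 of 15 and 1 of 13 higher with 0 lower. CDK inhibitors and p53 targets had 2 of 12 higher and 0 lower in iWAT and 0 of 11 higher and 1 lower in eWAT.

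Cell cycle genes differed little in iWAT, and several were lower in eWAT. Cells with 2 or more UMIs of 6 cycle genes, a count that depth raises, made up 74.6% of proliferin-high and 61.3% of proliferin-low cells in iWAT, and 71.1% and 73.9% in eWAT, at the median depths given in the next paragraph. G2 and M phase genes had 0 of 20 higher and 0 lower in iWAT, with a median of 0.11, and 0 of 20 higher and 5 lower in eWAT, with a median of -0.52. The shares of all genes beside these and the next counts were 3.07% higher and 5.04% lower in iWAT, and 5.86% and 5.49% in eWAT. S phase genes had 2 of 16 higher and 0 lower in iWAT, among them *Rrm2* at a log2 ratio of 0.83, and 0 of 15 higher and 2 lower in eWAT, with medians of 0.20 and -0.28. The sign of the S phase median was not stable in either library, since over the alternatives it lay between -0.06 and 0.43 in iWAT and between -0.43 and 0.08 in eWAT. The highest value in each library came without cycling cells. *Pcna* and *Mcm5* of the S phase list were used for that removal, so nothing is read from those values. The sign of the G2 and M phase median was not stable in iWAT, where it lay between -0.14 and 0.22, and in eWAT it lay between -0.59 and -0.37. Genes of ribosome biogenesis had 0 of 17 higher and 0 lower in each, with medians of 0.28 and -0.13.

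Depth moved with the groups. The median depth was 26003 UMIs in proliferin-high and 20516 in proliferin-low cells of iWAT, and 28985.5 and 25403.5 in eWAT. Mitochondrial UMIs were 3.34% and 3.10% in iWAT and 2.39% and 1.92% in eWAT, and the highest doublet scores fell on 3.15% of proliferin-high and 4.88% of proliferin-low cells in iWAT and on 2.17% and 4.46% in eWAT. With the proliferin-low cells weighted to the depth of the proliferin-high cells, 161 genes were higher and 272 lower in iWAT, and 390 higher and 354 lower in eWAT. With members chosen on a random 50% of the UMIs and levels read in the rest, the counts were 211 and 353 in iWAT and 375 and 363 in eWAT. Between 13 and 20 cell barcodes were shared by any pair of libraries, and 0 by the proliferin-high cells of the DFAT libraries.

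Several of these levels followed the proliferin share along its whole range and not only at its top. Cells with no proliferin UMI and 5 equal groups of the other cells in order of proliferin share were compared. *Slc7a11* stood at 108, 138, 150, 154, 222 and 320 CPM over these steps in iWAT and at 135, 154, 218, 251, 358 and 493 CPM in eWAT. *Col1a1* was lower at each step, from 1978 to 635 CPM in iWAT and from 970 to 246 CPM in eWAT. *Pparg* stood at 21.2, 30.4, 31.2, 48.0, 68.0 and 129 CPM in iWAT and at 52.5, 39.1, 46.0, 61.1, 91.2 and 153 CPM in eWAT, where the cells without proliferin stood above the next step.

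*Saa3* also broke the order, and in eWAT it stood at 1623 CPM in the first step, at 246 CPM in the next to last step and at 296 CPM in the last. *Plin1*, *Plin4*, *Cd36*, *Fabp4*, *Negr1* and *Tagln* broke it in both libraries. So did, among others, *Peg10*, *Sema3e*, *Acta2*, *Cxcl12*, *Isg15* and *Dcn* in iWAT and *Astn2* and *Vstm2a* in eWAT. Of the NRF2 list, *Gclm*, *Prdx1* and *Txnrd1* broke it in iWAT. *Areg* was nearly flat below the top in iWAT, from 3.32 to 5.68 CPM over the first 5 steps, and 15.0 CPM in the last.

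**Figure D5:**
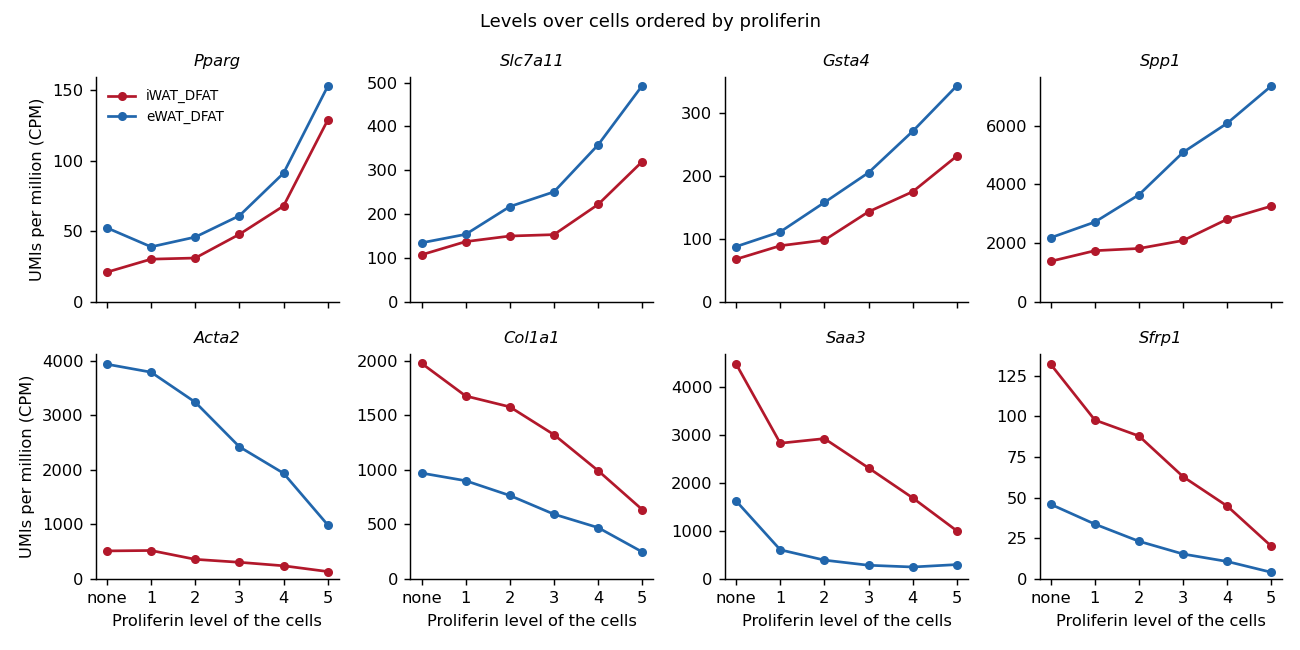
Levels in CPM of 8 genes over cells without a proliferin UMI ("none") and 5 equal groups of the remaining cells in order of proliferin share (1 to 5), in iWAT DFAT (red) and eWAT DFAT (blue), with each y axis starting at 0. *Slc7a11*, *Gsta4* and *Spp1* were higher and *Col1a1* and *Sfrp1* lower at every further step in both libraries, while *Pparg* in eWAT was lower in the first of the 5 groups than in cells without proliferin.

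The proliferin-high cells were not the same cells as the top 10% by any one of these genes. The top 10% of cells by *Pparg* share held 32.8% of the proliferin-high cells in iWAT and 28.2% in eWAT, against 4.69% and 6.65% of the proliferin-low cells. The top 10% by *Slc7a11* held 26.6% and 28.02% of them, and that by *Spp1* 24.0% and 24.6%. The top 10% by *Acta2* held 2.62% of the proliferin-high cells in iWAT and 0.310% in eWAT, and that by *Saa3* 1.83% and 7.12%.

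*Pparg* divided the proliferin-high cells themselves. A *Pparg* UMI was found in 535 of 763 proliferin-high cells in iWAT and 480 of 646 in eWAT, at median depths of 27297 and 30546.5 UMIs against 22845 and 24980 in those without. *Plin1* stood at 39.5 CPM (36.4 to 42.7) in the proliferin-high cells with a *Pparg* UMI and at 10.9 CPM (8.3 to 14.1) in those without in iWAT, and at 124 (118 to 130) and 31.0 CPM (25.9 to 36.9) in eWAT. *Peg10* followed the same pattern, at 39.6 against 15.5 CPM and at 69.97 against 34.9 CPM. *Areg* lay the other way, at 10.2 CPM (8.7 to 11.9) with and 26.6 CPM (22.4 to 31.4) without a *Pparg* UMI in iWAT, and at 91.3 (86.6 to 96.2) and 127 CPM (116 to 138) in eWAT. *Slc7a11* did not keep 1 direction, at 363 against 219 CPM in iWAT and 532 against 571 CPM in eWAT.

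The proliferin-high cells were also divided at their median share of *Prl2c3*, 382 against 381 cells in iWAT and 323 against 323 in eWAT, after other results were seen. This division rests on UMIs that the rule used and whose assignment to near-identical genes is uncertain, so that its values are a description with nothing read from them. *Plin1* stood at 47.7 CPM in the cells with the larger share and at 16.3 CPM in the others in iWAT, and at 125 and 80.2 CPM in eWAT. *Cd36* stood at 54.8 and 11.8 CPM in iWAT and at 254 and 168 CPM in eWAT. *Pparg* had log2 ratios of 0.59 in iWAT and 0.32 in eWAT, *Fabp4* of 2.38 and 0.30, *Areg* of -1.12 and -0.25, and *Spp1* of -0.03 and -0.05. The cells with the larger *Prl2c3* share also had more proliferin in sum, 1808 against 1247 CPM in iWAT and 3592 against 2636 CPM in eWAT, and a like depth in iWAT (26043.5 against 25974 UMIs) but a larger one in eWAT (31992 against 27542). The part of these differences in the other genes was not tested.

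The ASPC libraries, which the rule did not use, allow the same question at low counts. Cells with any proliferin UMI were compared with cells without, 523 against 6901 in iWAT and 229 against 6516 in eWAT, and 299 and 155 of the cells with proliferin held a single UMI. Over all genes at 20 or more CPM, 79 of 6108 were at least 1.5-fold higher in cells with proliferin (1.29%) and 130 lower (2.13%) in iWAT, and 29 of 6041 were higher (0.480%) and 100 lower (1.66%) in eWAT. Of the 122 genes higher in both DFAT libraries, 69 reached that level in iWAT ASPCs, of which 15 were higher (21.7%) and 1 lower, and 59 in eWAT ASPCs, of which 2 were higher (3.39%) and 0 lower. Of the 144 genes lower in both DFAT libraries, 127 reached it in iWAT ASPCs, of which 34 were lower (26.8%) and 0 higher, and 140 in eWAT ASPCs, of which 19 were lower (13.6%) and 0 higher.

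Among single genes, *Pparg* stood at 55.0 CPM in ASPCs with proliferin and 14.3 CPM in those without in iWAT, a log2 ratio of 1.94 (1.84 to 2.05), and at 19.3 and 7.75 CPM in eWAT, 1.31 (1.06 to 1.56). *Sfrp1* had ratios of -1.39 and -0.84, *Igf1* of -1.03 and -0.68 and *Dcn* of -1.10 and -1.21. *Spp1* had 0.60 in iWAT and -0.05 in eWAT, *Slc7a11* 0.26 and 0.52, and *Acta2*, which was very abundant in all ASPCs, -0.11 and 0.05. The cells with proliferin were deeper, with medians of 31127 against 24501 UMIs in iWAT and 32601 against 27401.5 in eWAT. The proliferin level of all ASPCs did not exceed that of their free RNA given above, and the part of free RNA and of depth in this comparison was not tested.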

How the data were processed

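Single-cell libraries of iWAT and eWAT DFAT cells and ASPCs, 1 per condition, were analysed from the UMI counts per gene and barcode that the authors deposited. The authors made these counts against mm10 with Cell Ranger (7.0.0 per the labels), and they precede any cell call, removal of background or normalization. The file headers name other releases, an older one for iWAT ASPCs than for the other 3 libraries, so that for iWAT ASPCs counting and cells cannot be told apart in comparisons with other libraries. The study's methods state that reads in introns were counted, which was not checked here for each library. Totals ranged from 211396227 to 242282812 UMIs per library over 32285 genes, of which 32235 matched GENCODE M21.

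Barcodes with 5000 to 75000 UMIs, 200 to 7500 genes and under 10% mitochondrial UMIs were kept. Proliferin-high cells were the top 10% and proliferin-low cells the lower 50% of each library by the summed UMIs of *Prl2c2*, *Prl2c3* and *Prl2c5* over all UMIs. The members, gene lists and markers were chosen with earlier results of these data known. Counts were summed per group and scaled to 1000000 UMIs. Sums carry exact Poisson, shares exact binomial and ratios exact conditional binomial 95% intervals, and for a share with a count of 0 the limit of 3 counts over the total is given. All cover counting error only. Doublets were kept and scored with Scrublet (scanpy 1.11.5), with removal at 0.8% per 1000 cells as an alternative. Detection was measured after thinning to 5000 UMIs. The computation of ratios and intervals was checked on simulated counts with known ratios. Software was Biopython 1.88, matplotlib 3.10.9, pandas 2.3.3, numpy 2.4.6, scipy 1.17.1 and Python 3.11.15.

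Named genes were the 3 rule genes with *Spp1*, *Areg* and *Slc7a11*, in each direction the 12 of largest ratio among those called in both libraries, ranked by the smaller absolute log2 ratio of both libraries, up to 4 per list with the highest level among those called, and the cell type markers. The adipogenic genes *Adipoq*, *Cfd* and *Lep* are markers. Lists were described by counts and medians, with no set test. *Prl2c1*, *Prlr*, *Igf2r*, *Cebpd*, *G6pdx*, *Gstp1*, *Osgin1*, *Srxn1* and the genes of opposite sign between libraries were chosen after their values were seen. Alternatives changed 1 choice at a time, and 3 of them (the CPM minimum over all kept cells and the removal of cells with 2 adipocyte markers or with shared barcodes) were added after the data were seen.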

Additional observations from a re-analysis of the deposited data

Results flagged for a closer look

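Of the genes measured in both DFAT libraries, 4 were at least 1.5-fold higher in the proliferin-high cells of one library and at least 1.5-fold lower in those of the other. Whether these differences between the libraries exceed those between cultures was not tested, since each depot had 1 library. *Iigp1*, an interferon-inducible GTPase, stood at 22.0 against 41.1 CPM in iWAT and at 20.5 against 5.43 CPM in eWAT, with log2 ratios of -0.90 and 1.92. *Hp*, the plasma protein haptoglobin, stood at 102 against 189 CPM in iWAT and at 1005 against 282 CPM in eWAT, with log2 ratios of -0.89 and 1.84. *C1qtnf7*, a secreted protein related to adiponectin, had log2 ratios of -0.87 in iWAT and 0.67 in eWAT. *Kcnab1*, a subunit of potassium channels, was the one higher in iWAT, with a log2 ratio of 0.88, and lower in eWAT, with -0.62.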

How the results depend on the processing

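With 1 library per condition the spread between cultures is unknown. Depth limits genes under 20 CPM, and weighting for it also moved the counts of genes at 20 CPM or more, as given above. No paired analysis was possible because each condition had 1 library and no replicate numbers. Over 19 alternatives, 900 of 924 list medians and 5365 of 5453 log2 ratios of named genes kept their sign, and of the ratios counted as higher or lower, which need 20 CPM, 3 changed it, all in eWAT: *Ccna2* (0.64) and *Scd1* (-0.10) without cycling cells, and *Cfd* (0.34) without cells that held 3 markers of another type. Ratios of genes under 20 CPM changed it as well, such as that of *Adipoq* in eWAT (-1.85), which was 0.59 without those cells. *Cfd* and *Adipoq* were among the markers used for that removal, so nothing is read from their change of sign. *Ccna2* is itself a cell cycle gene, so nothing is read from its change without cycling cells. The cause of these changes was not tested. The proliferin level of the proliferin-high cells in iWAT and eWAT was 2070 and 4268 CPM for the top 5%, 1046 and 2172 for the top 20%, 1459 and 2700 without cells with 2 adipocyte markers, 1495 and 2972 without cells of another type, 1362 and 3797 without cycling cells, 1674 and 3442 after subtraction of free RNA, 1564 and 3213 without the highest doublet scores, 1463 and 3014 when ranked by *Prl2c2* alone, 1481 and 3105 when chosen on other UMIs, and in eWAT 3185 as a mean over cells. Counts of genes higher and lower at 2-fold were 62 and 135 in iWAT, 144 and 143 in eWAT and 38 and 52 in both. They were 411 and 609, 656 and 751, and 239 and 295 at a minimum of 5 CPM, and 98 and 184, 212 and 198, and 62 and 80 at 50 CPM. For the top 20%, 123 genes were higher in iWAT, 230 in eWAT and 79 in both. Against all other cells, 78 were higher and 87 lower in both and 228 lower in eWAT, and without cycling cells 566 were lower in eWAT. For the other alternatives these counts stayed within 1.5 times those of the report.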
